A study of Mus musculus with 7 samples.

Results

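The genes described here are those named for proteins of the cytosolic ribosome, measured in NK-enriched mouse spleen cells cultured with or without interleukin 2 (IL2). They were chosen by name alone, as probes with 1 gene symbol that is Rpl or Rps followed by a digit, or Rplp0, Rplp1, Rplp2 or Rpsa, without the Rps6k kinases and without symbols marked as pseudogenes. The name rule found 63 of 19752 genes, on 207 probes. It used no measured value of either group, but was set with earlier results of these data known. For a gene with several probes the one with the highest mean over all arrays was taken. The study measured RNA on 7 Affymetrix Mouse Gene 1.0 ST arrays, on which a probe stands for 1 transcript cluster. The cells on 4 arrays (IL2 replicates 1 to 4) had received 250 U/ml of IL2 for 8 h, and those on 3 arrays (untreated replicates 2 to 4) had been kept without cytokine for the same time. The titles of IL2 replicates 1 and 2 and of untreated replicate 2 carry no time, which for them was read from the other labels. All cells came from the spleens of C57BL/6 male mice at 6 weeks of age, and were obtained with an EasySep negative selection kit, which removes other cell types. The labels name NK1.1 as phenotype marker. No label ties a replicate to a mouse or a culture of its own. A p-value therefore measures only the spread between these samples, which may be technical, and the number of arrays limits the precision.

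A ribosome consists of a small subunit, which reads the mRNA, and a large subunit, which joins amino acids, each built of rRNA and many small basic proteins made in matched amounts. The mRNAs of these proteins begin with a run of pyrimidines, the 5′ terminal oligopyrimidine (TOP) tract, through which mTORC1 and the RNA-binding protein LARP1 control how strongly they are translated. Lymphocytes that leave rest after a cytokine or antigen signal are known to build more ribosomes, for which rRNA synthesis by RNA polymerase I, nucleolar assembly factors and ribosomal proteins are all needed. An mRNA level measured on an array carries no information on the translational step of this control.

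After 8 h with IL2, no ribosomal protein gene passed the test in either direction. Of the 63 genes, 0 were higher and 0 lower at a Benjamini-Hochberg adjusted p under 0.05 in limma, a linear model with a moderated error fitted to all 19752 genes. Of all genes tested, 2.08% were called higher and 0.901% lower, or 2.98% either way. At an unadjusted p under 0.05, 4 ribosomal protein genes were higher and 0 lower, beside 8.81% higher and 4.67% lower of all genes (13.5% either way). The log2 fold changes (IL2 over untreated) had a median of -0.02 over the 63 genes and -0.01 over all genes. They ran from -0.32 for Rps9 to 0.79 for Rps27l, with quartiles of -0.11 and 0.05. For the 54 genes of the standard subunits and stalk, without paralogues and other symbols, the median was -0.03 and 22 were positive. A positive sign was found for 27 of the 63 genes (42.9%) and for 45.5% of all genes. That tally moved with the processing. After quantile normalization again 14 of the 63 genes were positive, beside 47.5% of all genes, and with every single-symbol probe counted 55 of 207 were positive, beside 45.7% of all such probes.

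**Figure D1:**
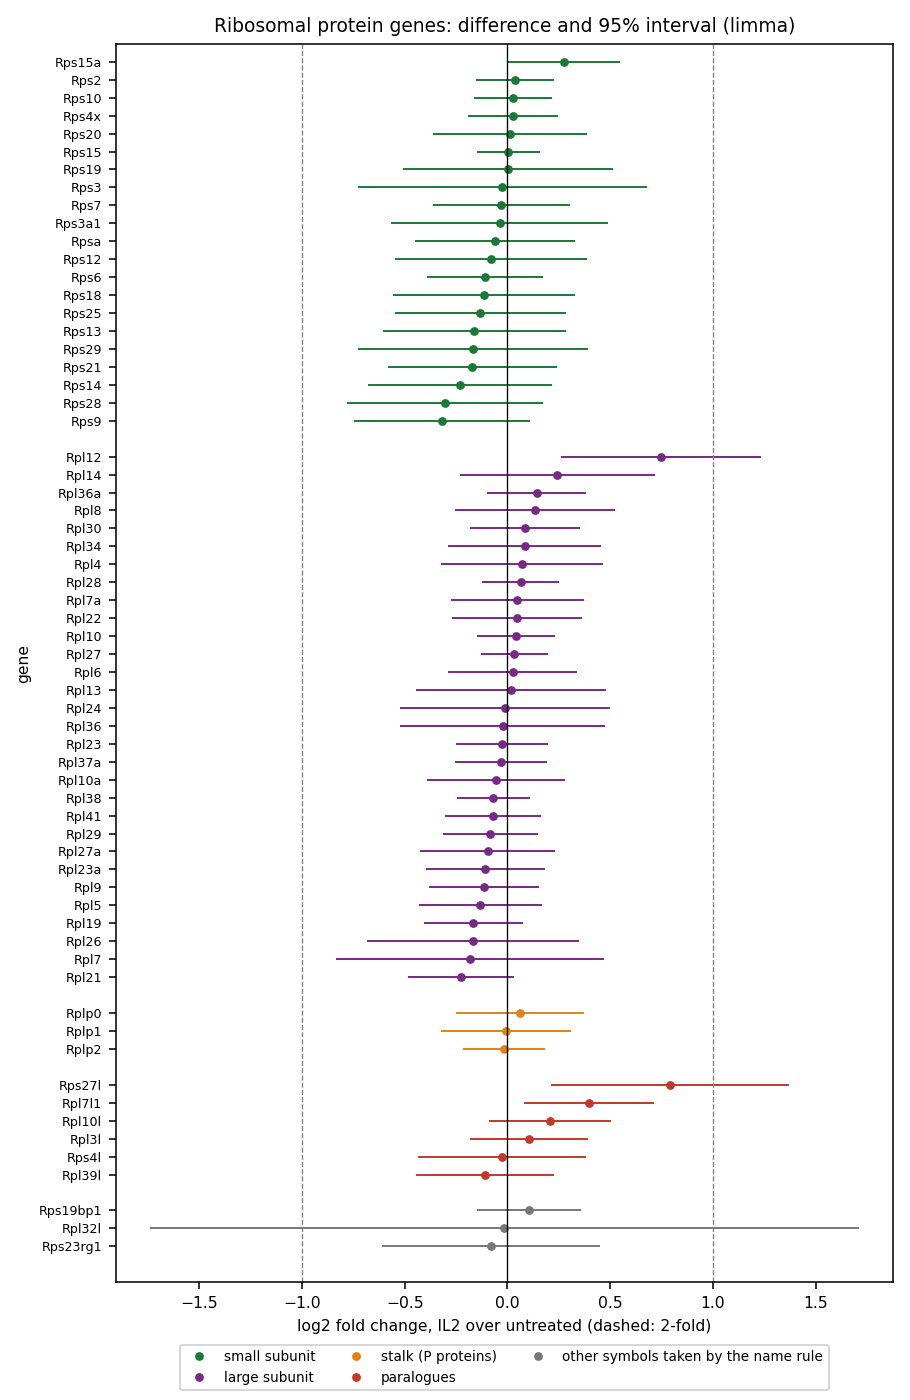
Log2 fold change of each of the 63 genes (x axis, IL2 over untreated, 4 against 3 arrays) with its 95% interval from limma, by role, with the gene names on the y axis. The intervals of Rps27l, Rpl12, Rpl7l1 and Rps15a do not reach 0, and those of Rps27l, Rpl12 and Rpl32l cross a 2-fold difference.

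The 95% intervals bound how large a difference in measured intensity could have gone unseen. The brightest of the 63 genes had a mean log2 intensity of 13.1, beside a highest of 13.7 over all genes. Whether probes this bright still follow the amount of RNA, or also bind RNA of related genes, was not tested. For 60 of the 63 genes the 95% interval of the difference lay within 2-fold in both directions, and for 49 within 1.5-fold, while the same held for 93.6% and 75.2% of all genes. The 3 genes with wider intervals were Rps27l, Rpl12 and Rpl32l. These values are relative to each array's own distribution, since the deposited values had been normalized between arrays, and a change in the total RNA of a cell would not be seen in them. The distributions still differed, with upper quartiles of intensity from 278 on untreated replicate 3 to 350 on IL2 replicate 4. Equal values on at least 2 arrays were found for 21 of the 63 genes (33.3%) and for 54.3% of all genes, and equal values make the measured spread smaller.

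Markers of NK cells and of other cells moved over the same arrays. The shares over all genes were 2.08% called higher and 0.901% called lower. Of 13 measured NK cell markers, 7 were higher and 0 lower, with log2 fold changes from 0.09 (Klrd1) to 2.83 (Prf1). Their summed intensity was 27143 to 32573 on the IL2 arrays and 8259 to 13033 on the untreated arrays. Of 15 measured macrophage and monocyte markers, 11 were lower, while 2 had a positive sign, up to 0.85 for Fcgr4. The sums of this list were 5613 to 7631 on the IL2 arrays and 17547 to 18920 on the untreated arrays. Of 11 measured B cell markers, 1, Fcer2a, was lower (-0.98), and all 11 had a negative sign. Their sums of 16008 to 17039 on the IL2 arrays and 18235 to 21857 on the untreated arrays show that B cell RNA was present on all arrays. Of 13 neutrophil markers 1 was lower and all 13 had a negative sign (median -0.72), with sums of 6086 to 9313 on the IL2 arrays and 10442 to 14034 on the untreated arrays. Of 10 dendritic cell markers 1, Cd209a, was lower (-1.71), while 5 had a positive sign, up to 0.75 for Bst2. Their sums were 6630 to 7750 on the IL2 arrays and 7926 to 8653 on the untreated arrays. A sum is carried mostly by the brightest markers, and the brightest of this list had a mean log2 intensity of 12.4. Of 6 platelet markers 0 were called, with sums of 3277 to 3991 on the IL2 arrays and 4055 to 5263 on the untreated arrays. The sums of the B cell, macrophage and monocyte, neutrophil, dendritic cell and platelet lists were thus lower on every IL2 array than on any untreated array. Of 11 T cell and 7 plasma cell markers 0 were called and the sums overlapped. Of 5 erythroid markers 1, Tfrc, was higher (0.94). The erythroid sums were 587 to 775 on the IL2 arrays and 521 to 573 on the untreated arrays. The median log2 fold change of that list was 0.11, and the 4 markers other than Tfrc lay below the median signal of all genes. A changed number of cells of a type and a changed amount of these RNAs per cell, in either direction, cannot be told apart in such bulk samples. The part of these shifts in the ribosomal protein values was not tested.

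The small subunit genes had the lowest median log2 fold change of the roles. Of 21 measured, 0 were called in either direction, 14 had a negative and 7 a positive log2 fold change, and their median was -0.06. Rps6, whose product is the classic substrate of the S6 kinases, had log2 intensities of 13.30, 13.18, 13.05 and 12.81 on IL2 replicates 1 to 4, against 13.21, 13.21 and 13.17 on untreated replicates 2 to 4. The untreated arrays lay inside the range of the IL2 arrays, and the log2 fold change was -0.11 (SE 0.12, limma adjusted p = 0.782). Rps19, the gene most often mutated in human Diamond-Blackfan anaemia, had 9.56, 9.97, 10.24 and 10.50 on the IL2 arrays, against 9.82, 10.18 and 10.19 on the untreated arrays. Its log2 fold change was 0.00 with a 95% interval of -0.50 to 0.51.

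The most negative value of all 63 genes belonged to Rps9, a protein of the small subunit body, with 9.83, 10.49, 10.42 and 10.58 on the IL2 arrays, against 10.64, 10.79 and 10.52 on the untreated arrays. One IL2 array lay far below the others and the groups overlapped. The log2 fold change was -0.32 (SE 0.18, limma adjusted p = 0.555). Rps28 followed, with 10.12, 10.27, 10.55 and 10.88 on the IL2 arrays, against 10.59, 11.07 and 10.61 on the untreated arrays (-0.30, SE 0.20, limma adjusted p = 0.626). Rps14 (-0.23), Rps21 (-0.17), Rps29 (-0.17) and Rps13 (-0.16) came next among the small subunit genes, and none had an interval that left out 0. Rps15a stood at the other end, with 9.14, 9.16, 9.51 and 9.40 on the IL2 arrays, against 9.16, 8.94 and 8.98 on the untreated arrays. Its groups overlapped through IL2 replicates 1 and 2 and untreated replicate 2, and its log2 fold change of 0.27 (SE 0.12) had an unadjusted p of 0.0482 and a limma adjusted p of 0.365.

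Of 30 large subunit genes, 0 were called in either direction, 14 were positive and 16 negative, with a median of -0.02. The lowest value was that of Rpl21, with 12.92, 12.91, 12.79 and 12.57 on the IL2 arrays, against 13.02, 13.14 and 12.91 on the untreated arrays. Only IL2 replicate 1 reached into the untreated range, and the difference on the log2 scale was -0.23, with an SE of 0.11 and a limma adjusted p of 0.450. Rpl7 (-0.18), Rpl26 (-0.17) and Rpl19 (-0.17) followed. Rpl5, which binds 5S rRNA and, when unassembled, the p53 inhibitor MDM2, had 11.00, 11.17, 11.04 and 11.17 on the IL2 arrays, against 11.39, 11.37 and 10.93 on the untreated arrays. Untreated replicate 4 was the lowest of the 7 arrays, and the log2 fold change was -0.13 (SE 0.13, limma adjusted p = 0.757). Rpl14 (0.24), Rpl36a (0.14) and Rpl8 (0.14) were the positive values after Rpl12, which is described below, and none of them had an interval that left out 0. For Rpl36a, 5 of the 7 arrays held the same value to 2 decimals (11.52).

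The stalk of the large subunit recruits the elongation factors and is made of the P proteins. Rplp0, its base, had 12.42, 12.74, 12.83 and 12.99 on the IL2 arrays, against 12.63, 12.73 and 12.69 on the untreated arrays, a difference of 0.06 on the log2 scale, with an SE of 0.13 and a limma adjusted p of 0.907. The untreated values all lay within the IL2 range. Rplp1 and Rplp2, the acidic proteins that bind to it, had log2 fold changes of -0.01 and -0.02. The probe of Rplp2 was annotated with 1 clone and no RefSeq transcript, which was also so for Rpl12, Rps3a1 and Rps4l among the 63 genes.

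The largest positive differences were found in Rps27l, a paralogue of Rps27 known as a p53-induced gene, and on the probe taken for Rpl12. Rps27l had 9.02, 9.72, 9.67 and 9.75 on the IL2 arrays, against 9.01, 8.996 and 8.25 on the untreated arrays. The groups did not overlap, by a margin of less than 0.01 between IL2 replicate 1 and untreated replicate 2, a separation with the IL2 arrays above that was found for 2 of the 63 genes, Rps27l and Rpl12, and for 6.25% of all genes. The opposite separation was found for 0 of the 63 and for 3.38% of all genes. The mean was 9.54 ± 0.35 (SD, n = 4) with IL2 and 8.75 ± 0.44 (SD, n = 3) without, a log2 fold change of 0.79 (SE 0.25), with an unadjusted p of 0.0133 and a limma adjusted p of 0.189. Among arrays with the time in the title (replicates 3 and 4 of each group) the difference was 1.09, and within the others (IL2 replicates 1 and 2, untreated replicate 2) 0.36. Without untreated replicate 4 the log2 fold change was 0.54. Mdm2, another gene induced by p53 (named after its value was seen), had a log2 fold change of 0.23 (limma adjusted p = 0.592). A part of p53 in these values was not tested.

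Rpl12, a protein near the base of the stalk, had 7.78, 8.08, 8.50 and 8.66 on the IL2 arrays, against 7.57, 7.36 and 7.60 on the untreated arrays. Every IL2 array lay above every untreated one. The mean was 8.26 ± 0.40 (SD, n = 4) with IL2 and 7.51 ± 0.13 (SD, n = 3) without, a log2 fold change of 0.75 (SE 0.21), with an unadjusted p of 0.00728 and a limma adjusted p of 0.132. It was the single member called under any alternative setting, with limma adjusted p-values from 0.0189 to 0.648 over 17 alternatives. Quantile normalization again gave 0.0189 in limma, with 3.7% of all genes higher and 3.18% lower. A block for the replicate number gave 0.0419 in limma (2.8% higher, 0.932% lower). Leaving out IL2 replicate 1 gave 0.0376 in limma (2.62% higher, 0.729% lower). The difference was 1.10 among arrays with the time in the title and 0.37 among the others. With genes under the median signal left out, 0 of 59 ribosomal protein genes were called, beside 5.85% of genes higher and 2.2% lower. The probe used carries a single clone accession and not the RefSeq transcript of Rpl12. A further 8 probes carry the Rpl12 symbol together with other symbols and cannot be assigned to it, and their log2 fold changes ran from -0.11 to 0.40 with a median of -0.07.

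Other paralogues were measured as well. Rpl7l1, the counterpart of a yeast protein of large subunit assembly, had 9.89, 9.89, 10.19 and 10.09 on the IL2 arrays, against 9.46, 9.51 and 9.89 on the untreated arrays. Untreated replicate 4 equalled the lower IL2 arrays to 2 decimals, and the log2 fold change was 0.40 (SE 0.13), with an unadjusted p of 0.0194 and a limma adjusted p of 0.229. Rpl3l, known from striated muscle, and Rpl10l and Rpl39l, known from the testis, had dim probes. Rpl39l had 5.45, 5.45, 5.45 and 5.37 on the IL2 arrays, against 5.27, 5.45 and 5.89 on the untreated arrays, and the others lay at 5.78 to 6.03 (Rpl3l) and 6.36 to 6.79 (Rpl10l) with IL2 and at 5.49 to 5.90 and 6.17 to 6.40 without. Their log2 fold changes were -0.11, 0.10 and 0.21, and that of Rps4l was -0.03. Of the 6 measured paralogues, 0 were called in either direction, and their median was 0.16.

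**Figure D2:**
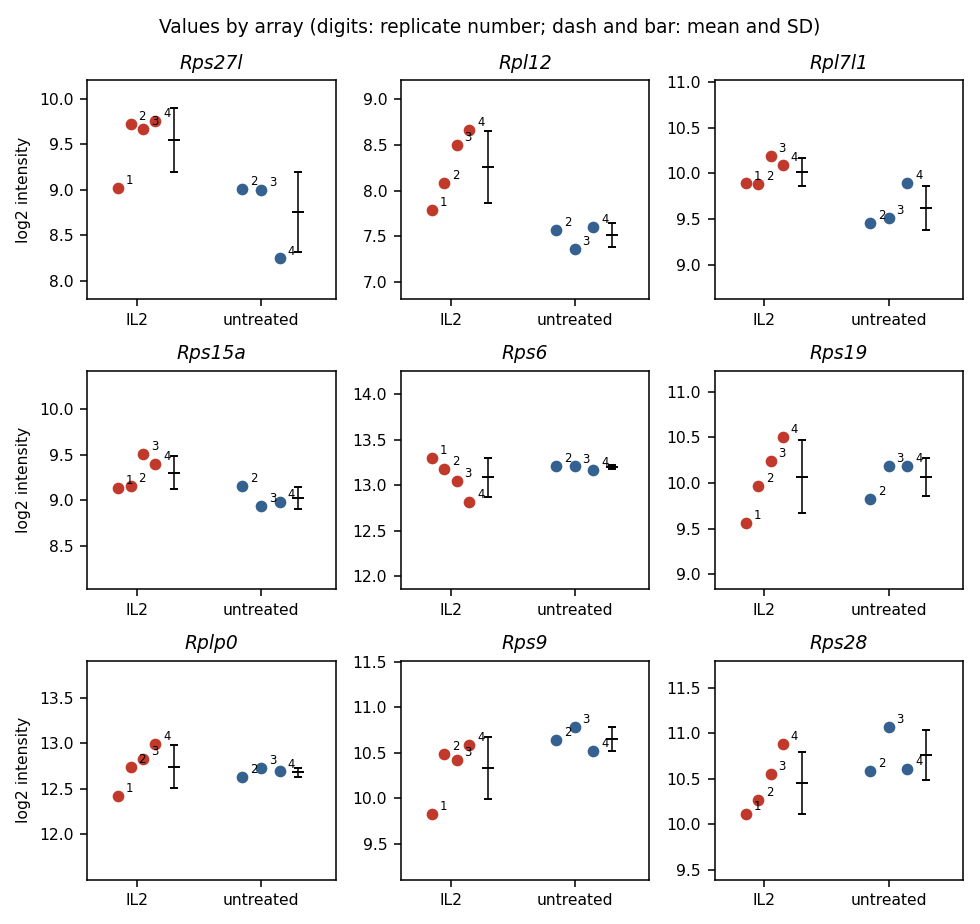
Log2 intensity (y axis, the same span in each panel) of 9 genes on the 4 IL2 and the 3 untreated arrays, with the replicate number at each point and the mean and SD beside it. Rps27l and Rpl12 have all IL2 points above all untreated points, and in the other 7 panels the groups overlap or touch.

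The name rule also took 3 symbols that are not ribosomal proteins of the standard set. Rps19bp1, which binds RPS19, had a log2 fold change of 0.11, and Rps23rg1, a retroposed relative of Rps23, of -0.08. Rpl32l had 9.77, 9.78, 9.51 and 7.39 on IL2 replicates 1 to 4, against 9.94, 9.76 and 7.68 on untreated replicates 2 to 4. Replicate 4 of both groups stood far below the other 5 arrays, and the log2 fold change was -0.01 (SE 0.74, limma adjusted p = 0.997).

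The promoters of the 4 genes with an unadjusted p under 0.05 and of 4 others are shown for comparison, since the members are known for a shared kind of start sequence. Sequences are from RefSeq (GRCm38.p6), 80 bases before to 20 bases from the annotated start, 5′ to 3′ on the strand of the gene. Capitals mark matches to the motifs CCGGAAG (the core of ETS family sites), AAGATGGC (YY1), GGGCGG (Sp1), CACGTG (the E-box of MYC) and CTCGCGAG (a palindrome known from promoters of housekeeping genes), on either strand, and any run of a C and at least 5 further C or T that begins within 30 bases of the start.
Rps27l, chr9:66946006-66946105, plus strand: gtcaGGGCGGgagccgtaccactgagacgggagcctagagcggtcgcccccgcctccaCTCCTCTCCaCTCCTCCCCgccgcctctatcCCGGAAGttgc
Rpl12, chr2:32961632-32961731, plus strand: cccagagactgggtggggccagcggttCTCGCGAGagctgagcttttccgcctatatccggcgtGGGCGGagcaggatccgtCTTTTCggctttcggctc
Rpl7l1, chr17:46782637-46782736, minus strand: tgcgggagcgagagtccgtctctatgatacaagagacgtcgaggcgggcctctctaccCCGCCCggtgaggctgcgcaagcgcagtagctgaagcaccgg
Rps15a, chr7:118116128-118116227, minus strand: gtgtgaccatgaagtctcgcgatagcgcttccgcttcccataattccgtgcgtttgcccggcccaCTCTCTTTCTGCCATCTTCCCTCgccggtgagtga
Rps6, chr4:86857348-86857447, minus strand: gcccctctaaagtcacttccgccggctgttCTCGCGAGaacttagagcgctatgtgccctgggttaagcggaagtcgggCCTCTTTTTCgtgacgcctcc
Rpl28, chr7:4792885-4792984, plus strand: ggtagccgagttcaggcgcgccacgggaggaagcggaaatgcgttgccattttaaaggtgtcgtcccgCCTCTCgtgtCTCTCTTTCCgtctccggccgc
Rpl27a, chr7:109519115-109519214, plus strand: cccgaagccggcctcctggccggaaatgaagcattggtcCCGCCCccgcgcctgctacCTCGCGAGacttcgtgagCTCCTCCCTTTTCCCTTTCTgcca
Rps28, chr17:33824543-33824642, minus strand: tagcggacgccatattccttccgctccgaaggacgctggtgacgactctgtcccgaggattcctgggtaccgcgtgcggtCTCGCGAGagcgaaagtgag

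Rps6, Rpl28, Rpl27a, Rps15a and Rpl12 hold a pyrimidine run across or next to the annotated start, while Rpl7l1 and Rps28 hold none in the searched stretch. In Rps27l the runs lie before the annotated start, and a second annotated start of that gene is not shown. Entries of 250 bases before to 50 after the start were found for 51 members, 60 in all, and 12 members had no entry. The pyrimidine run was found in 39 of the 60 (65.0%), beside 41.7% of all 32841 promoters. CTCGCGAG was found in 8 of the 60 (13.3%), beside 0.920% of all promoters, and CCGGAAG in 20 (33.3%), beside 8.86%. GGGCGG was found in 34 (56.7%), beside 35.7%, CACGTG in 7 (11.7%), beside 7.15%, and AAGATGGC in 3 (5%), beside 2.75%. Several entries of 1 gene overlap in sequence, and a match is a description of letters.

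The arrays of the IL2 group stood apart from each other in the level of these genes. IL2 replicate 1 held the lowest value of the 7 arrays for 28 of the 63 genes (44.4%), beside 17.3% of all genes, and IL2 replicate 4 the highest for 28 (44.4%), beside 20.3%. Relative to each gene's own mean, the median of the 63 genes was -0.15 on IL2 replicate 1 and 0.15 on IL2 replicate 4. It was -0.01 on IL2 replicate 2, 0.03 on IL2 replicate 3, and -0.01, 0.11 and -0.03 on untreated replicates 2, 3 and 4. The lowest and the highest median were thus both on IL2 arrays. Within the IL2 group, 30 of the 63 genes had replicate 1 lowest and replicate 4 highest (47.6%, beside 19.96% of all genes). The opposite order was found for Rpl21, Rpl29, Rpl41 and Rps6 (6.35%, beside 8.73%). Over all probes the upper quartile of intensity was 291, 318, 342 and 350 on IL2 replicates 1 to 4. Of the 63 genes, 59 lay at or above the median signal of all genes. These shares were not compared with those of equally bright genes. The median SD over the IL2 arrays was 0.29 for small subunit genes and 0.16 for large subunit genes, against 0.15 and 0.16 over the untreated arrays, and for all genes it was 0.14 with IL2 and 0.17 without.

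**Figure D3:**
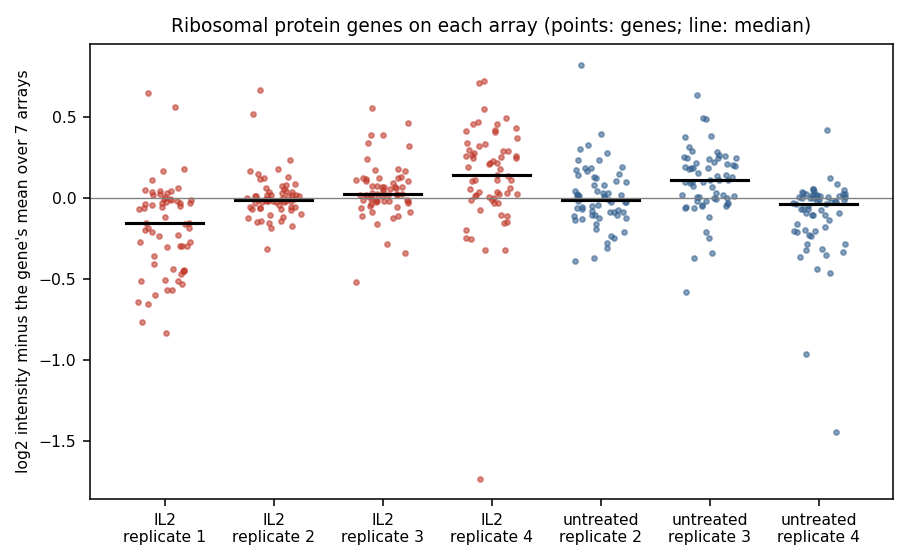
Log2 intensity of each of the 63 genes minus that gene's mean over the 7 arrays (y axis), by array (x axis), with the median as a line. IL2 replicate 1 has the lowest median (-0.15) and IL2 replicate 4 the highest (0.15), and the 2 lowest points are Rpl32l on replicate 4 of each group.

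The sign of the median depended on which arrays were compared. Among arrays with the time in the title it was 0.05, with 43 of 63 genes positive (46.9% of all genes). Among the other arrays it was -0.07, with 19 of 63 positive (53.8% of all genes). Both medians were smaller than the SD of the array medians within groups, which was 0.11. That SD describes single arrays and is not the error of a difference between groups.

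Genes with several probes allowed a check within the same arrays. Of the 38 genes with more than 1 probe, 21 had all log2 fold changes negative, 4 all positive and 13 of both signs. For 26 of the 38 the probes differed by less than 0.1, and the widest difference between probes of 1 gene was 0.24. Rps6 had 8 probes with log2 fold changes of -0.26 to -0.06, Rpl21 had 9 (-0.27 to -0.05), Rps28 had 6 (-0.34 to -0.22) and Rpl23a had 11 (-0.14 to -0.05). Ribosomal protein genes have many processed pseudogenes, and probes of such near-identical copies can bind the same RNA, so that these probes are not independent measurements.

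**Figure D4:**
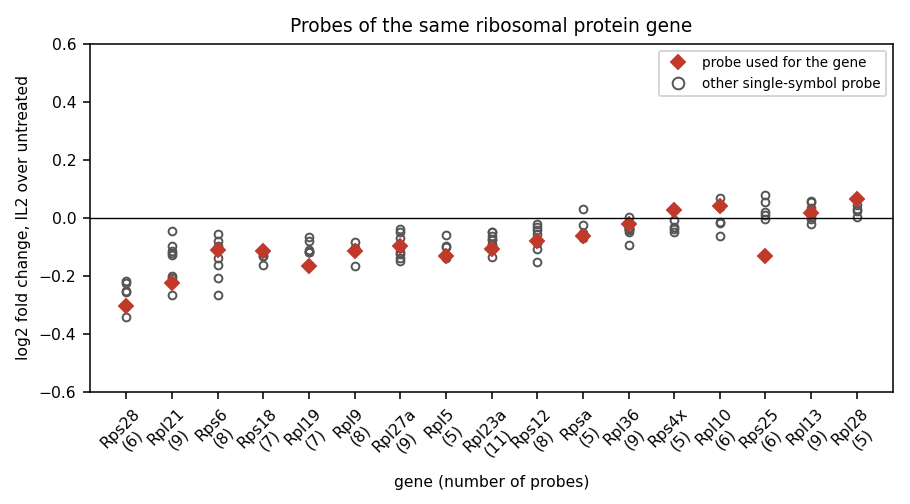
Log2 fold change (y axis, IL2 over untreated) of every single-symbol probe of the genes with at least 5 probes (x axis), with the probe used for the gene as a diamond. All points lie between -0.35 and 0.10, and the lowest point (-0.34) is a probe of Rps28.

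Not every ribosomal protein could be measured in this way. Of 79 genes listed for the standard subunits and the stalk, 54 were members with a probe of their own. Another 16, among them Rpl3, Rpl11, Rpl31 and Rps27, were named only on probes that also carry other symbols, and the remaining ones were not analysed here. Together, 222 probes with several symbols included that of a ribosomal protein gene. Their median log2 fold change was -0.06, the same to 2 decimals as that of the 207 single-symbol probes, and ran from -0.43 to 0.55.

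Genes that make ribosomes were read on the same arrays beside those that form them. Of 44 measured genes for the assembly and export of the subunits, 15 were higher and 0 lower, 43 had a positive sign, and the median log2 fold change was 0.75. The shares over all genes were 2.08% higher, 0.901% lower and 45.5% positive. Dkc1, the rRNA pseudouridine synthase dyskerin, had 8.52, 9.07, 9.10 and 9.10 on the IL2 arrays, against 7.78, 7.45 and 7.41 on the untreated arrays. The groups did not overlap, and it rose by 1.40 (SE 0.17, limma adjusted p = 0.00642). Nop58, of the box C/D particles that guide rRNA methylation, rose by 1.34 (SE 0.23, limma adjusted p = 0.0245). Of 20 genes for RNA polymerase I and 5S rRNA synthesis, 1 was higher and 0 lower, with a median of 0.32, and the gene called was Polr1b, the second largest subunit of the polymerase (1.48, SE 0.29, limma adjusted p = 0.0405).

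The genes that share the TOP tract with the ribosomal proteins had values close to theirs. Of 19 measured genes for translation elongation and other TOP mRNAs, 0 were higher and 0 lower, 10 were positive and the median was 0.00. The largest difference was that of Npm1, a nucleolar chaperone, at 0.48 (SE 0.12, limma adjusted p = 0.0970). Of 16 genes listed with the mTORC1 and LARP1 branch, not all of them parts of it, 2 were higher and 0 lower (2.08% and 0.901% of all genes), with a median of 0.10. They were Eif4a1, the helicase of the cap-binding complex (0.50, SE 0.09, limma adjusted p = 0.0300), and Larp4, an RNA-binding protein of the poly(A) tail (0.41, SE 0.08, limma adjusted p = 0.0453). Larp1 itself, named after its value was seen, had a log2 fold change of 1.12, with an SE of 0.23 and a limma adjusted p of 0.0509. Of the 6 measured genes of the 5S particle and p53 checkpoint list, 5 of them ribosomal protein genes, 0 were called in either direction. No test of the difference between these lists was made.

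**Figure D5:**
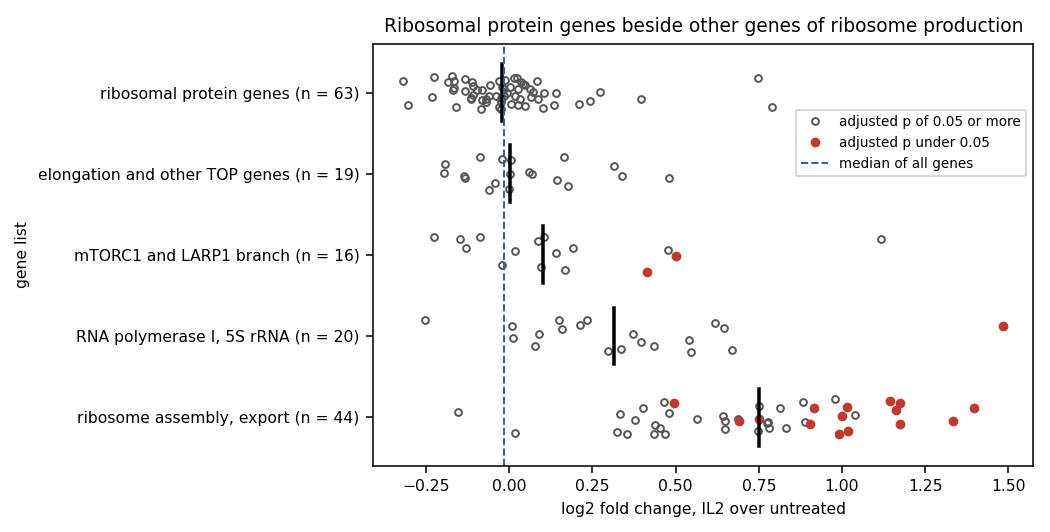
Log2 fold change (x axis, IL2 over untreated) of the ribosomal protein genes and of 4 other gene lists (y axis), with genes at an adjusted p under 0.05 filled and the list medians as black lines. The ribosomal protein genes centre on -0.02, at the median of all genes (-0.01), and the assembly and export genes on 0.75.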

How the data were processed

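The intensity values of 24922 probes were deposited by the authors on a linear scale. Per the submitters' processing notes, RMA and Affymetrix Power Tools were used. Their versions and settings are not given in the sources used here. Groups came from the sample titles. Values were brought to log2 with no offset. Of the probes, 21425 had 1 symbol, 1399 several and 2098 none. Those with 1 symbol gave 19752 genes, with no filter on signal.

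One model with the group as factor was fitted to all 7 arrays (limma 3.58.1, R 4.3.3, default eBayes), with Benjamini-Hochberg correction over all genes at 0.05. The fit was tested on simulated data, where 78% of log2 changes of 1 and 99% of log2 changes of 2 were recovered. Of the calls, 5.85% fell on unchanged genes. Changes smaller than 1 were not simulated. Named members were the 10 largest changes in each direction, the stalk, the paralogues, symbols outside the lists and a fixed few. Of each other list, up to 2 called genes in each direction were named, or the largest change where none was called. Members and lists were chosen with earlier results of these data known. Alternatives were a replicate or title style block, quantile normalization again, median centring, eBayes with trend and robust, array weights, a signal filter, probe means, subsets by title style, and each array left out. Every probe as a feature of its own was added after seeing the data. No sample was left out.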

Additional observations from a re-analysis of the deposited data

Results flagged for a closer look

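Among the named members and the median of all members, 31 sets of 4 IL2 arrays were examined for an array far from the others (Dixon's test at the 95% level, which chance passes in about 1 of 20), and 7 had one. Rps27l had 9.02 on IL2 replicate 1, against 9.67 to 9.75 on the other IL2 arrays, and Rpl19 had 12.38 there, against 12.66 to 12.68. Rpl32l had 7.39 on IL2 replicate 4, against 9.51 to 9.78. Rpl10l had 6.79 on IL2 replicate 3, against 6.36 to 6.43. For Rpl36a (11.70, against 11.52), Rpl39l (5.37, against 5.45) and Rpl3l (6.03, against 5.78), IL2 replicate 4 stood apart from 3 arrays with equal values, and such ties pass the test whatever the size of the gap.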

How the results depend on the processing

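The count of ribosomal protein genes higher with IL2 was 1 (Rpl12) instead of 0 after quantile normalization again, when 730 of all genes were higher and 628 lower, and 1 (Rpl12) in the fit with a replicate block, and it ran from 0 to 1 with each array left out in turn (1 without IL2 replicate 1). The cause was not tested. The replicate block leaves IL2 replicate 1 without a partner, so that its fold changes equal those without that array. The labels do not say whether replicate numbers pair the arrays. Deviations from the group mean on arrays with the same number correlated at 0.46, -0.30 and 0.31 for replicates 2, 3 and 4. In both groups replicates 2 and 4 correlated best with their own number, and replicate 3 did not. Deviations within a group of so few arrays depend on each other, so these values cannot settle the pairing. Under the other alternatives the count was 0, and the count lower was 0 under all that were run. The median stayed between -0.10 (quantile normalization again) and 0.05. Its sign was not stable, so that no direction of the group as a whole is given. The SD of the array medians within groups, 0.11 in the main data, was not computed again for the alternatives. Of 30 named members 19 changed sign under at least 1 of 17 alternatives and 1 was called under any. Rps27l, with adjusted p-values of 0.0639 to 0.827 in limma, and Rpl7l1 (0.0858 to 0.536) kept a positive sign.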
